A study of Mus musculus with 9 samples.

Results

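Stimulated Trap-80 knock-down fibroblasts were set against resting wild-type fibroblasts, which asks how much of the early transcriptional answer to TNF-α is present in cells depleted of Trap-80, and which genes lie under the resting wild-type level. The members are 6 of the 9 arrays of the series, chosen by their labels: 3 of wild-type cells without stimulation and 3 of Trap-80 knock-down cells given TNF-α at 5 ng/ml for 1 h. Both are 3T3 cells, fibroblasts of mouse embryos that grow without limit in culture, and total RNA was taken from 3 independent cultures of each and hybridised to Affymetrix Mouse Gene 1.0 ST arrays. The knock-down cells are a clonal line that stably expresses a short hairpin RNA against Trap-80, and the cells called wild type carry an irrelevant hairpin. The remaining 3 arrays, of wild-type cells with the same TNF-α treatment, entered the estimate of the spread and are quoted beside the members. Knock-down cells at rest were not analysed here. The contrast therefore joins the change of line, which rests on 1 clone, with 1 h of TNF-α, and a difference of the line at rest and a difference of the response cannot be told apart. In such bulk RNA, fewer cells that express a gene and less RNA of it per cell cannot be told apart either.

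TNF-α binds its receptors on fibroblasts and, through adaptor proteins and the IκB kinase complex, removes the IκB proteins that hold NF-κB dimers in the cytoplasm. NF-κB then enters the nucleus and switches on chemokines, cytokines and adhesion molecules that draw leukocytes to a tissue, together with its own inhibitors, which end the signal. Mediator is the large multi-subunit complex that links such DNA-bound activators to RNA polymerase II, and Trap-80, encoded by *Med17*, belongs to its head module.

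*Med17* had a log2 signal of 8.10, 8.09 and 7.89 in the resting wild-type arrays and of 6.35, 6.22 and 6.17 in the stimulated knock-down arrays, so the groups did not overlap. The log2 difference was -1.78 (standard error 0.09, limma adjusted p = 1.89e-05), which leaves 29.1% of the resting signal (p = 0.1 in a two-sided exact permutation test, which cannot go lower with 3 arrays a group). Values are log2 signals as the authors deposited them, and "passed the test" means a limma p under 0.05 after Benjamini-Hochberg adjustment over the 23410 probe sets with at least 1 gene. Array medians lay between 4.47 and 4.59, the correlation between arrays of a group between 0.985 and 0.992, and log2 differences had a median standard error of 0.10.

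Stimulated knock-down cells differed widely from resting wild-type cells. Of the 23410 probe sets tested, 851 (3.64%) were higher and 1081 (4.62%) lower. Over the 19938 genes with a symbol of their own, 765 (3.84%) rose above and 946 (4.74%) lay below the resting level, and the median difference over all genes was -0.01. A log2 difference of at least 1 (2-fold) was reached by 176 of the higher genes (0.883%) and 145 of the lower ones (0.727%). For comparison, TNF-α raised 26 probe sets (0.111%) and lowered 1 (0.00427%) in wild-type cells, a contrast that shares the resting arrays, and between the lines under TNF-α 786 (3.36%) were higher and 609 (2.6%) lower in the knock-down, a contrast that shares the knock-down arrays. In these 2 side comparisons deviations of same-numbered arrays correlated positively, though some different-numbered pairs did so more. With the replicate number as a block 51 probe sets were higher and 4 lower for TNF-α in wild type, and 1156 and 952 between the lines. The numbers moved with single arrays: without resting array 1 there were 523 higher and 624 lower probe sets, without knock-down array 1 there were 611 and 663, and without knock-down array 3 there were 543 and 737.

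**Figure D1:**
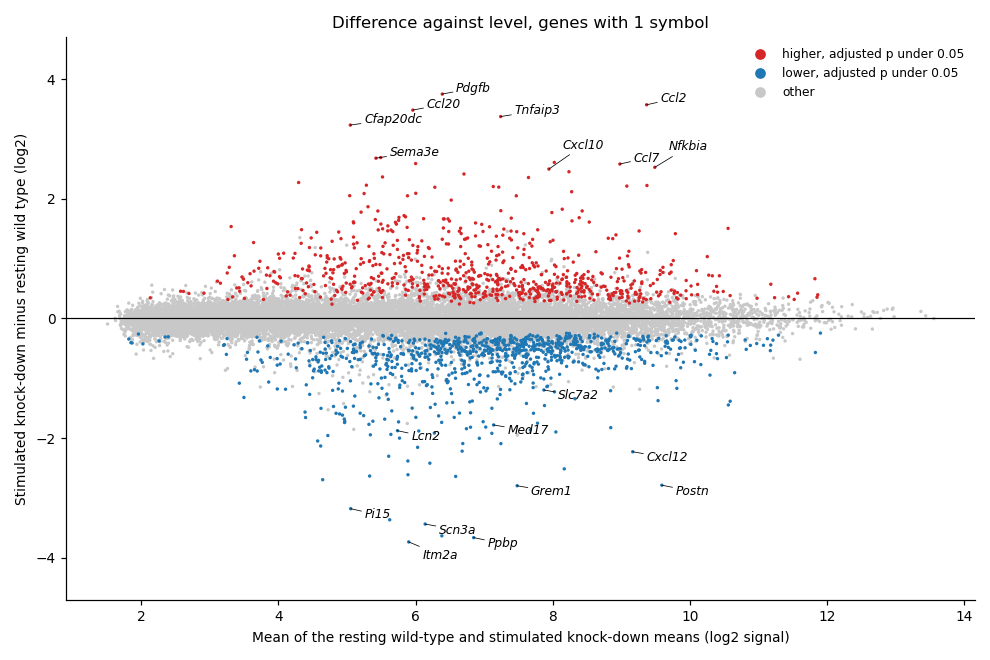
Each point is 1 gene, placed by the mean of its resting wild-type and stimulated knock-down log2 signals (horizontal axis) and by the log2 difference between those groups of 3 arrays (vertical axis). Red genes (765) were higher and blue genes (946) lower at an adjusted p under 0.05, with *Pdgfb* at the top (3.75) and *Itm2a* at the bottom (-3.73).

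Inhibitors of NF-κB and its inducible subunits stood well above the resting level in the knock-down. *Nfkbia*, which encodes IκBα, the inhibitor that is degraded and made anew in each NF-κB pulse, had 8.29, 8.21 and 8.17 in the resting arrays and 10.57, 10.65 and 11.04 in the knock-down arrays, a difference of 2.53 (5.76-fold; standard error 0.13, adjusted p = 1.90e-05). The stimulated wild-type arrays read 10.69, 10.66 and 10.99, and the difference between the stimulated lines was -0.03 with a 95% interval of -0.33 to 0.27. *Nfkbie*, which encodes IκBε, went from 6.85, 6.81 and 7.37 to 9.24, 9.27 and 9.88 (difference 2.45, adjusted p = 9.67e-04), with stimulated wild-type arrays at 9.12, 9.07 and 9.97. In both inhibitors every knock-down array was above every resting array and within or next to the range of the stimulated wild-type arrays. The atypical IκB gene *Nfkbiz* was higher by 0.67 (adjusted p = 0.00637) and *Bcl3*, a nuclear IκB protein, by 0.57 (adjusted p = 0.0431), and *Bcl3* missed the threshold without resting array 1 or 2, stimulated wild-type array 1 or knock-down array 1, 2 or 3 (adjusted p = 0.0725 to 0.145). In all, 4 of 9 measured IκB proteins and kinase subunits were higher and none lower, with a list median of 0.28. This and every later list count stands beside shares over all genes of 3.84% higher and 4.74% lower. All lists were chosen with earlier results of these data known, so a larger share in a list is no independent evidence. The kinase gene *Ikbkb* differed by -0.18 (adjusted p = 0.126).

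Among the NF-κB subunits, *Rel* (c-Rel) read 7.14, 7.11 and 6.95 at rest and 7.86, 7.81 and 7.89 in the knock-down, a rise of 0.79 (adjusted p = 0.00188). *Relb*, the partner of p52, was higher by 0.71 (adjusted p = 0.0113), and it missed the threshold without resting array 1 (adjusted p = 0.0514). *Nfkb2*, the precursor of p52, was higher by 0.66 (adjusted p = 0.018), and it missed the threshold without resting array 1 or 2 or knock-down array 3 (adjusted p = 0.0758, 0.0638 and 0.0656). Thus 3 of 4 measured subunits passed, with a list median of 0.69. *Rela*, which encodes p65 itself, overlapped between the groups (8.12, 7.99 and 8.11 against 8.03, 8.21 and 8.42) and differed by 0.15, with a 95% interval of -0.09 to 0.39.

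The adaptors and ubiquitin regulators under the TNF receptors were mixed, with 7 of 21 measured genes higher, 2 lower and a median of 0.21. *Tnfaip3*, which encodes A20, the ubiquitin-editing brake on NF-κB, showed one of the largest differences above rest. It read 5.72, 5.54 and 5.40 at rest and 8.94, 8.76 and 9.08 in the knock-down (difference 3.37, 10.4-fold, standard error 0.17, adjusted p = 1.85e-05). The knock-down arrays were under the stimulated wild-type arrays at 9.92, 9.80 and 10.45, and the stimulated lines differed by -1.13 (adjusted p = 0.00466). The ubiquitin ligase gene *Birc3* (cIAP2) went up by 1.42 (adjusted p = 0.00535) and the kinase gene *Map3k8* (Tpl2), which relays TNF-α to ERK, by 0.99 (adjusted p = 0.00584). Their stimulated wild-type means stood 1.42 and 1.35 over rest. *Traf1*, an adaptor of the second TNF receptor, was higher by 0.81 (adjusted p = 0.0113) from a dim resting mean of 4.02. Dim here means under the median probe set mean of 4.51 over all deposited probe sets, which was 5.02 over the tested ones.

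The TNF receptor genes moved apart. *Tnfrsf1b* (TNFR2) read 6.33, 6.41 and 6.30 at rest and 7.47, 7.54 and 7.64 in the knock-down (difference 1.21, adjusted p = 1.63e-04), while the stimulated wild-type arrays remained at 6.23, 6.52 and 6.30. *Tnfrsf1a* (TNFR1), the receptor on most cell types, read 9.78, 9.63 and 10.002 at rest and 9.17, 9.26 and 9.29 in the knock-down, lower by a difference of -0.57 (adjusted p = 0.0208), and it missed the threshold without resting array 1 or 3 or knock-down array 1, 2 or 3 (adjusted p = 0.052 to 0.0806). *Rbck1*, which encodes the linear-ubiquitin ligase subunit HOIL-1, was lower by a difference of -0.80 (adjusted p = 0.00198).

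**Figure D2:**
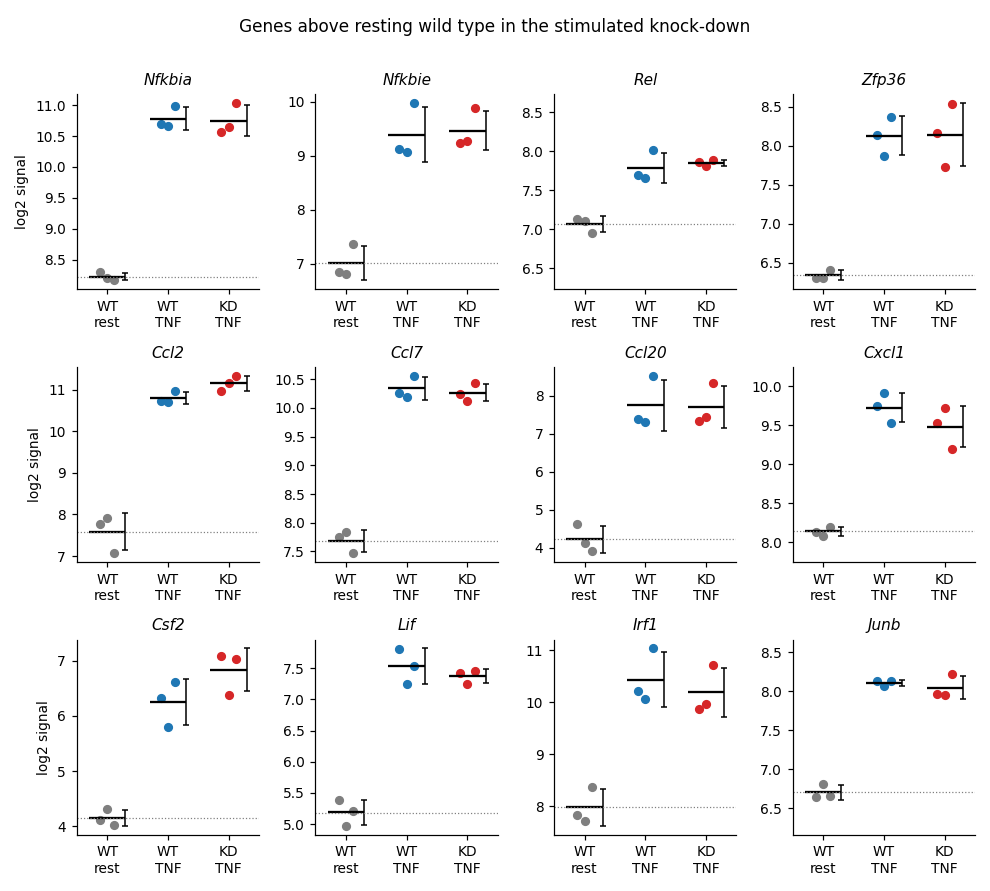
Log2 signal of 12 genes that passed the test above resting wild type in the stimulated knock-down; grey points are resting wild-type, blue points stimulated wild-type and red points stimulated knock-down arrays (n = 3 each), the black line is the mean, the bar its SD and the dotted line the resting mean. In every panel the 3 red points lie above the 3 grey points, as in *Ccl2* (10.97, 11.16 and 11.33 against 7.77, 7.91 and 7.07).

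Of 14 measured CC and CX3C chemokines, 5 were above rest in the knock-down and none below (median 0.10). *Ccl2* (Mcp-1), which calls in monocytes, had 7.77, 7.91 and 7.07 at rest and 10.97, 11.16 and 11.33 in the knock-down, a difference of 3.57 (11.9-fold; standard error 0.20, adjusted p = 2.67e-05). The knock-down arrays were at or over the stimulated wild-type arrays, which read 10.72, 10.70 and 10.98. *Ccl7*, a related monocyte attractant, was higher by 2.58 (adjusted p = 1.89e-05), and *Ccl20*, which attracts lymphocytes and dendritic cells, by 3.48 (adjusted p = 7.22e-04), from a dim resting mean of 4.22. *Cx3cl1* (fractalkine), a membrane-bound chemokine, rose by 1.40 (adjusted p = 0.00328) and *Ccl17* by 0.84 (adjusted p = 0.00188). For the first 4 of these the stimulated lines differed by between -0.07 and 0.36, and none of those differences passed the test.

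*Ccl5* (Rantes), a chemokine for T cells, behaved otherwise. It read 7.34, 7.47 and 6.88 at rest and 7.26, 6.90 and 7.26 in the knock-down, overlapping groups that differed by -0.09 (95% interval -0.63 to 0.45). The stimulated wild-type arrays were at 8.20, 7.88 and 8.82, all above the knock-down arrays, with -1.16 between the stimulated lines (adjusted p = 0.0218). The remaining 8 chemokines of this list, such as *Ccl9* at 0.54, did not pass by their brightest probe set. A second, dimmer probe set of *Ccl25*, a thymus chemokine, was higher by 0.39 (adjusted p = 0.0141), while the brighter one was at 0.07 (adjusted p = 0.823).

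Among 13 CXC chemokines, 3 were higher, 2 were lower and the median was 0.15. *Cxcl1* (KC), a neutrophil attractant, read 8.14, 8.08 and 8.20 at rest and 9.53, 9.71 and 9.19 in the knock-down (difference 1.34, adjusted p = 6.66e-04), against 9.74, 9.91 and 9.53 in stimulated wild-type cells. *Cxcl2* (Mip-2), of the same kind, was higher by 1.44 (adjusted p = 0.014) from a dim mean of 3.84, and it missed the threshold without resting array 1 or 2 or knock-down array 3 (adjusted p = 0.0618, 0.055 and 0.0586). *Cxcl10* (Ip-10), an interferon-type chemokine for T cells, stood 2.497 above rest (5.65-fold, adjusted p = 0.00392). Its knock-down arrays were uneven, at 8.61, 8.80 and 10.16 over resting arrays at 6.63, 6.92 and 6.53. All 3 were below the stimulated wild-type arrays at 10.49, 10.45 and 11.23. *Cxcl5* overlapped in the 2 groups (difference 0.38, adjusted p = 0.166).

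The 2 lower CXC genes were far below rest. *Cxcl12* (SDF-1), a homeostatic chemokine made by stromal cells, read 10.23, 10.11 and 10.50 at rest and 8.17, 7.80 and 8.19 in the knock-down (difference -2.23, adjusted p = 2.04e-04). *Ppbp* (Cxcl7), a precursor of neutrophil-activating peptides, read 8.33, 8.90 and 8.81 at rest and 5.35, 5.12 and 4.58 in the knock-down (difference -3.66, 12.7-fold lower, adjusted p = 1.03e-04). Both stayed near rest in stimulated wild-type cells, at -0.15 and -0.20 from it.

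Promoter sequence is shown for 8 genes that span these outcomes, since p65 acts through κB sites; such sites can also lie far from the start of transcription, outside the windows shown. The 200 bases before the annotated start are taken from RefSeq (GRCm38.p6), 5′ to 3′ on the gene's strand, in lower case, with each match to the κB consensus on either strand in capitals. *Nfkbia* (chr12:55492648-55492847, minus strand), *Ccl20* (chr1:83116566-83116765, plus strand), *Cxcl1* (chr5:90891045-90891244, plus strand) and *Cxcl2* (chr5:90903699-90903898, plus strand) stood above rest in the knock-down, and their differences from stimulated wild type did not pass the test:
Nfkbia: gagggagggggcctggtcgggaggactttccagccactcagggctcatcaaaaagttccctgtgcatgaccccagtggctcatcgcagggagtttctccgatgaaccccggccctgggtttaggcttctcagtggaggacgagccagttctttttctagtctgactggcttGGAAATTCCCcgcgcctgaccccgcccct
Ccl20: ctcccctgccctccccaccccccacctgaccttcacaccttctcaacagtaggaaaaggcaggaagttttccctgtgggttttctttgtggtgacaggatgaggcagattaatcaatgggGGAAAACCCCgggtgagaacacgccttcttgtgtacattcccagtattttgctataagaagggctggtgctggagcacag
Cxcl1: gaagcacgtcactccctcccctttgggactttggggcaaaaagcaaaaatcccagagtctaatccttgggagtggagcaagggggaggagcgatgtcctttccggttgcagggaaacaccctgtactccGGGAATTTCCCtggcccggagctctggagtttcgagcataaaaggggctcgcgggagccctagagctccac
Cxcl2: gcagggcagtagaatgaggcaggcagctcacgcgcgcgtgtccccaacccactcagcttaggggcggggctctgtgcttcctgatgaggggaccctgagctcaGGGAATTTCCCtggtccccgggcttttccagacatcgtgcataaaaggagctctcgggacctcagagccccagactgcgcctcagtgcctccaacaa
*Tnfaip3* (chr10:19015411-19015610, minus strand) and *Cxcl10* (chr5:92348890-92349089, minus strand) stood above rest but below stimulated wild type:
Tnfaip3: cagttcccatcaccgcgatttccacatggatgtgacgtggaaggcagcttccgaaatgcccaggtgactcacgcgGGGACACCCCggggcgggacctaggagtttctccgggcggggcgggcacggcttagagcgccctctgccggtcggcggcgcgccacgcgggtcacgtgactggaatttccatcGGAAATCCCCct
Cxcl10: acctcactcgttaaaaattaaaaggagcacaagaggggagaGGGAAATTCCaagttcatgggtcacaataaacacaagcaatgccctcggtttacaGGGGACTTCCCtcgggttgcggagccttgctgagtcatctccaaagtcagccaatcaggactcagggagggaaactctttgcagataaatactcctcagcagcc
*Chil1* (chr1:134181956-134182155, plus strand) and *Lcn2* (chr2:32387740-32387939, minus strand), described further on, ended below rest:
Chil1: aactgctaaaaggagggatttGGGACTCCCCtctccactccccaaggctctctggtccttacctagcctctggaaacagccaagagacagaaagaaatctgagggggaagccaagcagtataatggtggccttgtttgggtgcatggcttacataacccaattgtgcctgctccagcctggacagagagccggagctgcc
Lcn2: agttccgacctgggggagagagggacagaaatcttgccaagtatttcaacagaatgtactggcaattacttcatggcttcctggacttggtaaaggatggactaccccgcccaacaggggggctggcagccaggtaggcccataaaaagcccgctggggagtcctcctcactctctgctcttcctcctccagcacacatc

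In these windows the κB match began 29 bases before the start in *Nfkbia*, 80 in *Ccl20*, 71 in *Cxcl1* and 97 in *Cxcl2*, where overlapping matches on both strands were read as 1 run. *Tnfaip3*, the only one of the 8 with a second annotated start, had matches at 125 and 12 bases and an AP-1 motif (TGACTCA or, on the other strand, TGAGTCA) at 136. Its start shown here was chosen because it held more κB matches. The longer window of its other start held 0 κB matches and 0 AP-1 motifs. *Cxcl10* had matches at 159 and 104 bases and an AP-1 motif at 74. *Chil1* had 1 match, at 179 bases, and *Lcn2* none in this window. Over longer windows of 250 bases before to 50 after the start, the κB consensus was held by 22 of the 59 NF-κB, IκB, A20, chemokine and cytokine genes with an annotated promoter (37.3%), by 98 of 590 genes above rest (16.6%), by 82 of 745 genes below it (11.01%), by 1713 of the 15614 measured genes with a promoter (10.97%) and by 2581 of all 27025 genes in the promoter table (9.55%). The share below rest is thus close to that of the measured genes. The GC box (GGGCGG or CCGCCC), a motif of Sp1-type factors, was held by 75.4% of the genes above rest, 68.2% of those below, 52.9% of the measured genes and 38.2% of all in the table. The AP-1 motif was held by 6.27% and 4.16% of the genes above and below rest, by 5.41% of the measured genes and by 5.95% of all. The TATA box (TATAAA or TTTATA) was held by 12.03% and 9.26% of genes above and below rest, by 13.6% of the measured genes and by 15.7% of all. These shares are a description and no test was made.

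Of 20 cytokines and colony-stimulating factors, 5 were higher and 1 lower, with a median of 0.07. The 1 lower gene is 5% of the list, near the 4.74% of all genes. *Csf2* (GM-CSF), a growth factor of myeloid cells, was dim at rest (4.12, 4.31 and 4.02) and read 7.08, 6.39 and 7.04 in the knock-down (difference 2.69, adjusted p = 3.10e-04). Its stimulated wild-type arrays were at 6.33, 5.81 and 6.63. *Lif* (leukemia inhibitory factor) was higher by 2.19 (adjusted p = 9.46e-05) and *Csf1*, the macrophage growth factor, by 1.03 (adjusted p = 0.00153). *Tslp*, an epithelial-type cytokine, and *Tnfsf9*, the ligand of 4-1BB, had dimmer signals and were higher by 1.09 (adjusted p = 0.00727) and 0.79 (adjusted p = 0.0102). *Il1rn*, the interleukin-1 receptor antagonist, lay below rest, at 6.93, 6.60 and 7.21 against 9.17, 8.95 and 10.15 (difference -2.51, adjusted p = 0.00283). *Il6* was dim in both groups (2.54 at rest and 2.63 in the knock-down) and differed by 0.09 with a 95% interval of -0.29 to 0.47, so its response could not be read from this probe set.

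Immediate-early genes, which respond to many stimuli without new protein, were above rest in a larger share than the 3.84% of all genes. Their lists too were chosen with earlier results of these data known, so this excess is no independent evidence. Of 24 AP-1, EGR and related factors 11 were higher and none lower (median 0.52), and of 25 feedback and stress genes 14 were higher and 2 lower (median 0.80). *Junb*, a subunit of AP-1, read 6.65, 6.81 and 6.65 at rest and 7.97, 7.95 and 8.21 in the knock-down (difference 1.34, standard error 0.09, adjusted p = 7.44e-05). *Irf1*, an interferon regulatory factor, was higher by 2.21 (adjusted p = 0.0026) by its brighter probe set, while its dimmer one differed by 0.15 (adjusted p = 0.402). The zinc-finger genes *Klf10* and *Egr1* were higher by 1.45 (adjusted p = 0.00115) and 1.33 (adjusted p = 0.00343).

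Some of these genes stood higher in knock-down arrays than in those of stimulated wild type. *Jun* read 7.60, 7.66 and 7.13 at rest, 8.37, 8.38 and 8.74 in stimulated wild-type and 8.93, 9.04 and 9.31 in knock-down arrays, with 1.63 over rest (adjusted p = 6.12e-04), and all 3 knock-down arrays were over all stimulated wild-type arrays. The difference of 0.60 between the stimulated lines did not pass the test (adjusted p = 0.074). *Btg2*, an anti-proliferative gene, was at 4.37, 4.69 and 5.07, 6.17, 5.995 and 6.94 and 7.18, 6.89 and 7.82 in the same order (2.59 over rest, adjusted p = 0.00115; 0.93 between the stimulated lines, not passing at an adjusted p of 0.13, or passing at 0.00382 with the replicate block). *Pim1*, a survival kinase, and *Ier5* were 1.16 and 0.93 over rest (adjusted p = 0.00105 and 0.0012), and here the stimulated lines differed as well, by 0.63 and 0.67 (adjusted p = 0.0222 and 0.00741).

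Genes that end inflammatory signals were present too. *Zfp36* (tristetraprolin) and *Zc3h12a* (Regnase-1), both of which destabilise cytokine mRNAs, were higher by 1.80 (adjusted p = 7.69e-04) and 1.20 (adjusted p = 0.00199), and *Ier3* by 1.80 (adjusted p = 0.00525). For each of these 3 genes the stimulated lines differed by 0.07 or less. The phosphatase gene *Dusp14*, which acts on MAP kinases, was higher by 0.73 (adjusted p = 0.00218). The 2 lower members were *Gadd45g*, a stress gene, and *Socs3*, an inhibitor of cytokine receptors. *Gadd45g* read 8.22, 8.15 and 8.25 at rest and 7.57, 7.62 and 7.77 in the knock-down (-0.56, adjusted p = 0.00417), with stimulated wild-type arrays lower still at 7.34, 7.45 and 7.21. *Socs3* differed by -0.72 (adjusted p = 0.0277), but its dimmer probe set by -0.10 (adjusted p = 0.625), and it missed the threshold without stimulated wild-type array 1 or knock-down array 1, 2 or 3 (adjusted p = 0.0508 to 0.0986).

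**Figure D3:**
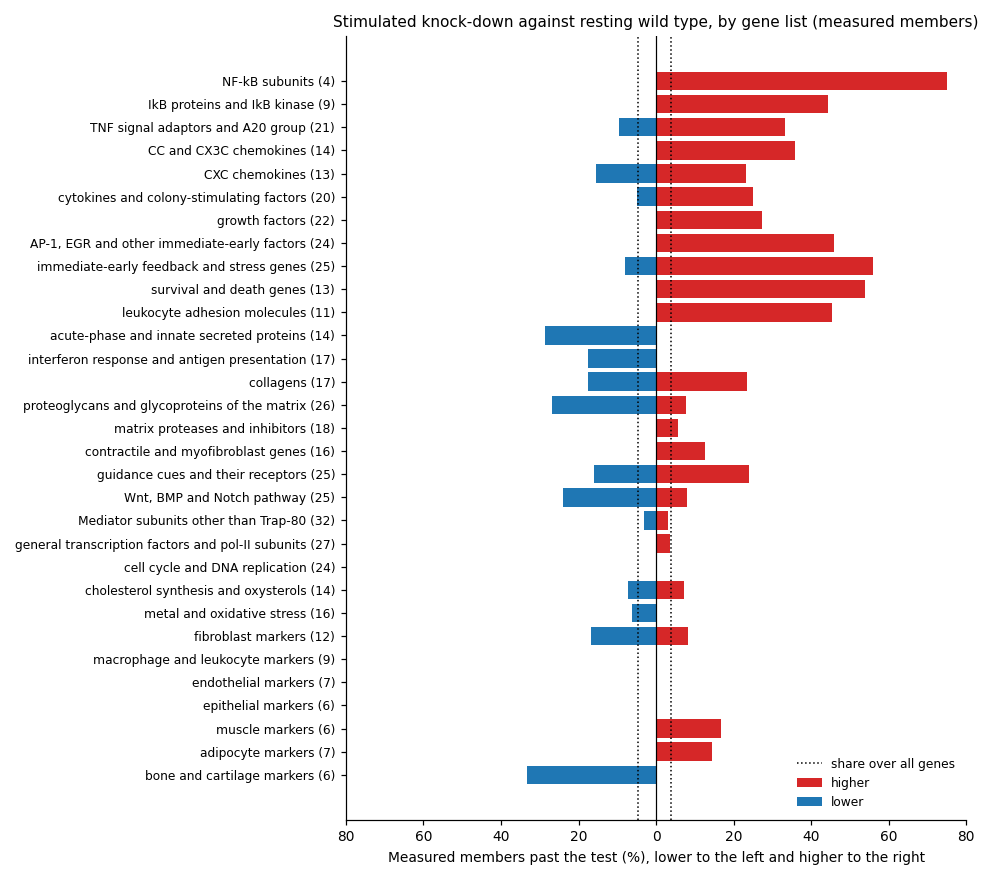
Share of the measured members of each gene list (number in brackets) that passed the test above rest (red, right) or below rest (blue, left) in the stimulated knock-down, in percent. Dotted lines are the shares over all genes, 3.84% higher and 4.74% lower; bars of lists with few members move in large steps.

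Some genes whose stimulated wild-type means stood above rest were at rest or below it in the knock-down. *Slc7a2*, a carrier of cationic amino acids, read 8.32, 8.51 and 8.58 at rest, 9.37, 9.41 and 9.59 in stimulated wild-type and 7.59, 7.16 and 7.06 in knock-down arrays. Against rest it was higher by 0.99 in the former (adjusted p = 0.0474, but 0.0685 with the replicate block) and lower in the latter, with a difference of -1.20 (adjusted p = 0.00115). The groups of 3 did not overlap in any pair. *Mc5r*, a melanocortin receptor, showed the same order at a lower level, with 5.21, 5.34 and 5.18 at rest and 4.47, 4.41 and 4.18 in the knock-down (difference -0.89, adjusted p = 0.00724), and 5.71, 6.36 and 6.09 in stimulated wild type, where its difference from rest of 0.81 did not pass (adjusted p = 0.147). *S1pr3*, a receptor for sphingosine 1-phosphate, was lower than rest by a difference of -0.75 (adjusted p = 0.0226), and it missed the threshold without resting array 1 or 3 or knock-down array 1 or 2 (adjusted p = 0.0601 to 0.0881).

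Other genes that were lower in the knock-down than in stimulated wild type did not pass the test against rest, of which *Ch25h*, *Fas* and *Sod2* were chosen after their values were seen. *Ch25h*, cholesterol 25-hydroxylase, lay between the wild-type groups, with knock-down arrays at 5.36, 4.67 and 5.36. These were above all resting arrays, which were dim at 3.49, 3.94 and 4.41, and below all stimulated wild-type arrays at 7.13, 7.40 and 8.58. Its difference of 1.19 from rest missed the threshold (adjusted p = 0.0998, but 0.0265 without stimulated wild-type array 3), and its difference of -2.57 from stimulated wild type passed (adjusted p = 0.00444). The death receptor gene *Fas*, the vasodilator peptide gene *Adm* and the mitochondrial superoxide dismutase gene *Sod2* differed from rest by 0.48, 0.29 and -0.12, with 95% intervals of -0.07 to 1.03, -0.21 to 0.79 and -0.44 to 0.20. From stimulated wild type they differed by -1.17, -1.0 and -0.84 (adjusted p = 0.0237, 0.0294 and 0.00892).

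**Figure D4:**
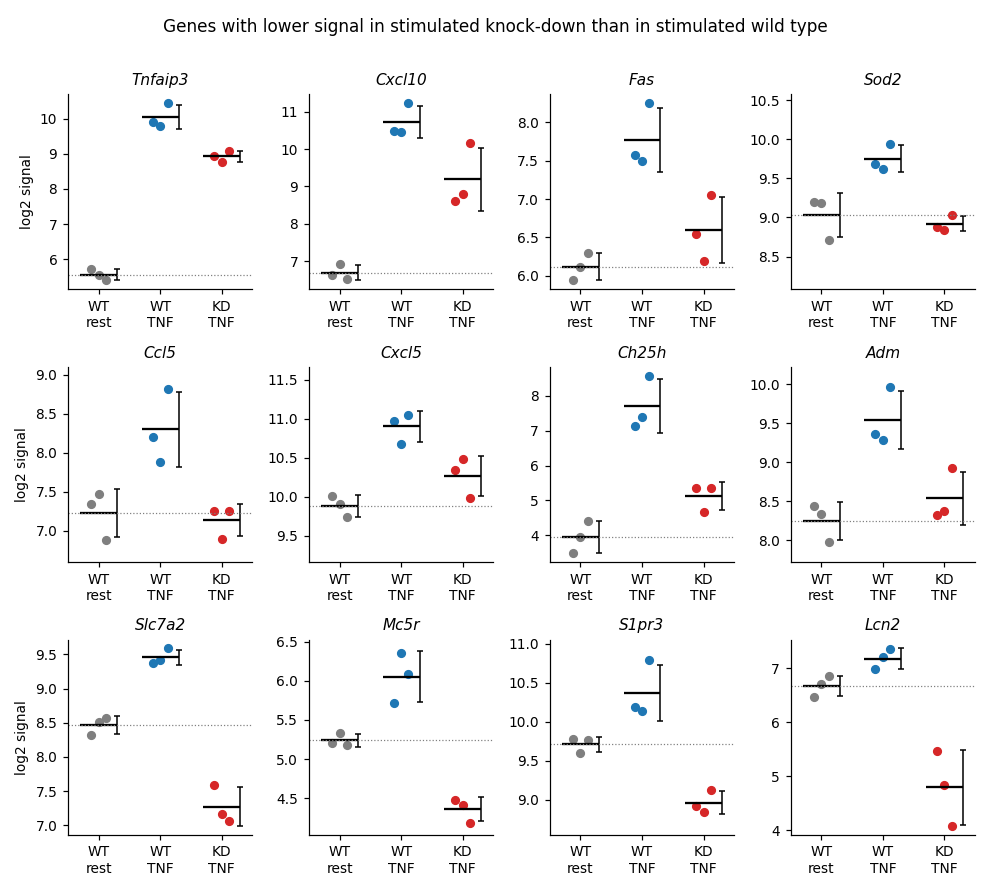
Log2 signal of 12 genes that passed the test below stimulated wild type in the stimulated knock-down, with symbols as in the plot of genes above rest. The red points lie between the grey and blue points in *Tnfaip3* and *Cxcl10*, overlap the grey ones in *Ccl5*, *Adm* and *Sod2*, and fall below them in *Slc7a2*, *Mc5r*, *S1pr3* and *Lcn2*.

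Acute-phase and innate secreted proteins gave no increase and 4 decreases among 14 measured genes (median -0.26). The decreases are 28.57% of the list, beside 4.74% of all genes. *Lcn2*, a lipocalin that withholds iron from bacteria, read 6.47, 6.70 and 6.85 at rest and 5.47, 4.84 and 4.09 in the knock-down (difference -1.88, adjusted p = 0.0044), and *Chil1*, a secreted relative of the chitinases, was lower by a difference of -1.62 (adjusted p = 0.00169). The plasma proteins ceruloplasmin (*Cp*) and haptoglobin (*Hp*) were lower by differences of -0.88 (adjusted p = 0.00456) and -1.18 (adjusted p = 0.0363), and *Hp* missed the threshold without stimulated wild-type array 1 or 2 or knock-down array 1, 2 or 3 (adjusted p = 0.0573 to 0.126). *Ptx3*, a pentraxin chosen after its value was seen, was at -0.80 without passing (adjusted p = 0.153). Of 17 interferon-response and antigen-presentation genes 3 were lower and none higher (median -0.07): *Irf9*, a subunit of the interferon-activated factor ISGF3, at -1.254 (adjusted p = 0.00649), the peptide transporter gene *Tap1* at -0.58 (adjusted p = 0.0167) and the antiviral gene *Ifitm3* at -0.45 (adjusted p = 0.028). *Tap1* missed the threshold without knock-down array 1 or 3 (adjusted p = 0.0675 and 0.0579), and *Ifitm3* missed the threshold without resting array 1, 2 or 3 or knock-down array 1 or 2 (adjusted p = 0.0641 to 0.0978).

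Some of the largest increases were in genes that stimulated wild-type cells carried much nearer to the resting level. *Pdgfb*, which encodes the PDGF B chain, a mitogen of mesenchymal cells, had the largest of all that passed. It read 4.46, 4.51 and 4.58 at rest and 7.81, 8.15 and 8.84 in the knock-down (difference 3.75, 13.4-fold, adjusted p = 2.67e-05). The stimulated wild-type arrays, at 5.09, 5.22 and 5.26, were above every resting array, but no measured growth factor passed the test in that comparison. *Sema3e*, a secreted semaphorin that was dim at rest, read 4.09, 4.04 and 4.12 and 6.58, 6.72 and 6.99 (difference 2.68, adjusted p = 7.00e-06). *Adgre5* (CD97), an adhesion receptor, read 6.50, 6.56 and 6.35 and 8.88, 8.82 and 8.78 (difference 2.36, adjusted p = 7.00e-06). In each of these the 3 knock-down arrays were over all 6 wild-type arrays. *Msln* (mesothelin) was higher by 2.41 (adjusted p = 3.71e-04), *Mcam* (CD146) by 2.21 (adjusted p = 6.06e-05), and *Cfap20dc* and *Dglucy*, genes of little studied or metabolic function, by 3.23 (adjusted p = 1.90e-05) and 2.37 (adjusted p = 4.49e-04) from dim resting means of 3.43 and 4.34.

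Growth factors as a list had 6 of 22 members higher and none lower (median 0.24). Besides *Pdgfb* they were *Hbegf*, an EGF receptor ligand, at 1.68 (adjusted p = 0.00832), *Bmp4* at 1.38 (adjusted p = 1.10e-04), *Tgfb1* at 0.93 (adjusted p = 0.00224), the angiogenic factor gene *Vegfa* at 0.87 (adjusted p = 0.00346) and *Pdgfa* at 0.65 (adjusted p = 0.00137). Apart from *Vegfa*, each of these also differed between the stimulated lines (*Vegfa* had an adjusted p of 0.144 there, and of 0.0431 with the replicate block). Survival and death genes had 7 of 13 higher and none lower (median 0.43), among them the pro-apoptotic *Bcl2l11* (Bim) at 0.96 (adjusted p = 0.00105) and *Bid* at 0.79 (adjusted p = 0.00268), and the protective *Cflar* (c-FLIP) at 0.63 (adjusted p = 0.00539), *Bcl2* at 0.54 (adjusted p = 0.00313) and *Bcl2l1* (Bcl-xL) at 0.43 (adjusted p = 0.0062). Of 11 leukocyte adhesion molecules 5 were higher (median 0.44), with *Vcam1*, the ligand of integrin VLA-4, at 9.73, 9.55 and 10.14 at rest and 11.22, 11.14 and 11.57 in the knock-down (difference 1.51, adjusted p = 0.00295). *Icam1* was higher by 0.90 (adjusted p = 0.0301), and it missed the threshold without resting array 1 or 2 or knock-down array 1 or 3 (adjusted p = 0.0801 to 0.109).

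**Figure D5:**
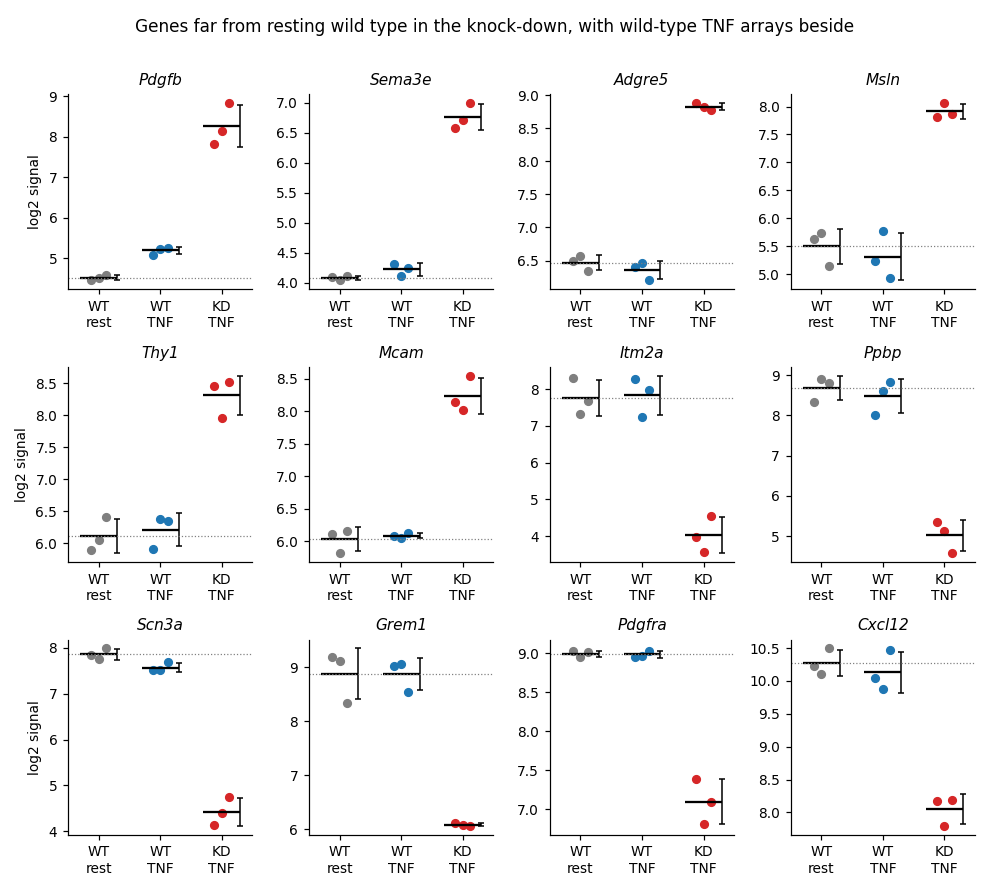
Log2 signal of 12 genes with large differences from rest in the stimulated knock-down, with symbols as in the plot of genes above rest. In all 12 the red points lie apart from both wild-type groups, above them in the first 6 panels and below them in the last 6. The blue points stay nearer to the resting mean, furthest from it in *Pdgfb* (by 0.68), where they lie above all grey points.

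Of the genes furthest below rest, *Itm2a*, *Scn3a* and *Grem1* were near the resting level in stimulated wild type, at 0.07, -0.29 and -0.01 from it. *Itm2a*, a membrane protein of developing cartilage and muscle, read 8.30, 7.33 and 7.67 at rest and 3.99, 3.56 and 4.55 in the knock-down (difference -3.73, 13.3-fold lower, adjusted p = 4.04e-04). *Scn3a*, a sodium channel subunit, read 7.84, 7.75 and 7.99 and 4.13, 4.41 and 4.74 (difference -3.44, adjusted p = 7.51e-06). *Grem1*, a secreted BMP antagonist, read 9.19, 9.11 and 8.34 and 6.11, 6.08 and 6.06 (difference -2.80, adjusted p = 2.04e-04). In the knock-down, *Itm2a* averaged 4.03 and *Scn3a* 4.42, under the median probe set mean, so the size of these differences is less certain. Further genes of the 15 lowest were *Prl2c5* (a proliferin, from a family of near-identical genes whose probes may not be told apart) at -3.63, *Tmem45a* at -3.36, the protease inhibitor gene *Pi15* at -3.18, *Mgst1* (a microsomal glutathione transferase) at -2.69, *Nsg1* (an endosomal protein of neurons) at -2.64, the glycosyltransferase gene *Galnt13* at -2.63, *Sirpa*, the receptor of the CD47 signal, at -2.42, and *Cemip*, which takes part in hyaluronan breakdown, at -2.38, each past the test.

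Of 26 proteoglycans and glycoproteins of the matrix, 7 were lower and 2 higher (median -0.22). *Tnn* (tenascin N) was lower by a difference of -2.61 (adjusted p = 5.54e-04), *Dcn* (decorin), a small proteoglycan that binds collagen, by -2.15 (adjusted p = 0.00138), and the fibulin genes *Fbln1* and *Fbln2* by -1.84 (adjusted p = 2.62e-04) and -1.17 (adjusted p = 1.63e-04). *Has2*, the main hyaluronan synthase of fibroblasts, was at -1.16 (adjusted p = 0.00527). *Postn* (periostin) had a large but scattered difference, with knock-down arrays at 8.43, 6.57 and 9.58 and resting arrays at 10.81, 10.79 and 11.36 (-2.79, standard error 0.63, adjusted p = 0.0257), and it missed the threshold without resting array 1, 2 or 3 or knock-down array 1 (adjusted p = 0.0665 to 0.0791). Collagens split into 4 higher, led by *Col18a1* at 1.247 (adjusted p = 8.02e-04), and 3 lower of 17, led by the cartilage collagen *Col2a1* at -0.96 (adjusted p = 0.00587). Among 18 proteases and inhibitors only *Plau* (urokinase), which activates plasminogen, passed, at 2.05 over rest (adjusted p = 0.00244). It is 5.556% of the list, near the 3.84% of all genes that were higher.

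Signals between cells were shifted in both directions. Of 25 guidance cues and receptors 6 were higher, among them *Sema3e*, *Sema7a* (1.55, adjusted p = 4.04e-04) and the ephrin receptor gene *Epha2* (1.045, adjusted p = 0.00268), and 4 were lower, among them *Sema3c* (-1.06, adjusted p = 0.00171). Of 25 Wnt, BMP and Notch pathway genes 6 were lower, including *Grem1* and the inhibitory *Smad6* (-1.054, adjusted p = 4.60e-04), and 2 were higher, the Notch target *Hes1* (1.32, adjusted p = 0.00193) and the TGF-β feedback gene *Smad7* (1.12, adjusted p = 0.00145).

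In the transcription machinery the shares past the test were near or under those of all genes (3.84% higher and 4.74% lower). Of 32 Mediator subunits other than Trap-80, *Med6*, a head subunit, was higher by 0.52 (adjusted p = 0.0328) and *Med22*, also of the head, lower by a difference of -0.63 (adjusted p = 0.0425), which is 3.125% each way, and the median was 0.01. *Med6* missed the threshold without resting array 2, stimulated wild-type array 1 or 2 or knock-down array 1, 2 or 3 (adjusted p = 0.0507 to 0.114), and *Med22* missed the threshold without resting array 1 or 2, stimulated wild-type array 1 or 2 or knock-down array 1, 2 or 3 (adjusted p = 0.0649 to 0.145). Of 27 general transcription factors and polymerase subunits, *Gtf2a1*, a subunit of TFIIA and 3.704% of the list, was higher by 0.44 (adjusted p = 0.0283), and it missed the threshold without resting array 1 or 2, stimulated wild-type array 1 or knock-down array 2 or 3 (adjusted p = 0.0512 to 0.0975). No cell cycle gene of 24 passed the limma test (before adjustment, 1 was higher and 4 were lower with p under 0.05). *Sp1*, a factor of the GC box, differed by 0.07, with a 95% interval of -0.09 to 0.24.

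Fibroblast identity was checked on 12 markers, of which *Thy1* was higher at 8.45, 7.96 and 8.52 against 5.89, 6.05 and 6.41 (difference 2.20, adjusted p = 3.33e-04). *Pdgfra*, a receptor of PDGF, was lower at 7.38, 6.82 and 7.09 against 9.02, 8.95 and 9.01 (difference -1.90, adjusted p = 6.85e-05), as was *Dcn* (above). No marker of macrophages and leukocytes (9), endothelium (7) or epithelium (6) passed the limma test. At an unadjusted p under 0.05, 1 of the first was lower, none of the second differed and 2 of the third were higher. Of 6 muscle markers 1 was higher and none lower, *Acta1* (1.08, adjusted p = 0.00285), with a list median of -0.04. Of 7 fat cell markers 1 was higher and none lower, *Lpl* (1.047, adjusted p = 0.0397), with a median of -0.10. Of 6 bone and cartilage markers 2 were lower and none higher, *Sox9* (-0.37, adjusted p = 0.0208) and *Col2a1*, with a median of -0.34. With 1 gene each, the muscle and fat cell counts are not a result about these cell types. *Lpl* missed the threshold without resting array 1, 2 or 3, stimulated wild-type array 1, 2 or 3 or knock-down array 1 or 3 (adjusted p = 0.0556 to 0.129), and *Sox9* missed the threshold without knock-down array 1 or 3 (adjusted p = 0.0756 and 0.0725). Whether these shifts bear on the differences from rest described above was not tested.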

How the data were processed

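Total RNA of 9 cultures was hybridised to Affymetrix Mouse Gene 1.0 ST arrays, 1 array per culture, in 3 groups of 3. The authors deposited log2 values for 35557 probe sets, made from the scans by RMA (background correction, normalization between arrays and 1 summary value per probe set), whose version was not given in the sources used here. Probe sets were named from the platform annotation: 21789 had 1 gene symbol, 1621 several and 12147 none here. Of the value columns, 0 lacked a sample. The 23410 probe sets with a symbol were fitted with limma 3.58.1 (R 4.3.3) in 1 model of the 3 groups, with Benjamini-Hochberg adjustment of the p-values across that whole set. The 3 groups share 1 estimate of the spread (6 residual and 3.2 prior degrees of freedom), and 95% intervals come from the same fit. A gene with several probe sets (999 genes) is represented by the brightest. Only 3 arrays per group limit the precision.

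Groups came from the sample labels. Deviations of same-numbered arrays from their group means correlated by 0.298, 0.11 and 0.403 between resting and stimulated wild type. Between the stimulated lines they correlated by 0.147, 0.274 and 0.465. Different-numbered arrays correlated by -0.402 to 0.249 and by -0.392 to 0.16, so some exceeded same-numbered pairs. The numbers, which the labels give without saying what they share, were taken as a possible pairing of the arrays in these 2 comparisons. Tests quoted without mention of the replicate block do not use this pairing. Between resting wild type and knock-down, same-numbered arrays correlated by 0.151, 0.002 and 0.221, and the numbers were not taken to pair them. This choice rests on the same correlations, so the pairing is uncertain, and the block is given only as an alternative. The arrays compared, the gene lists (512 of 548 listed genes measured) and the tests were chosen with earlier results of these data known. Genes were named by rule: the 15 largest differences in each direction among those that passed without overlap, members of the lists that passed, members of the NF-κB, IκB, A20, chemokine, cytokine and immediate-early lists by role, and genes of the study's text. Exceptions are stated, and 1 gene that the rule names is not reported here. Simulated data with changes of 0.5, 1, 2 and 4 on the log2 scale in 50 probe sets each gave 60%, 96%, 96% and 100% recovery in the comparison of stimulated knock-down with resting wild type (23410 probe sets, 8 false calls). Noise was drawn independently for each probe set and array, and all other probe sets were left unchanged. Real arrays deviate together in part and differ in many more probe sets, so these rates need not hold for them.

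Promoters came from a RefSeq table (GRCm38.p6) and were matched by symbol for 15614 of 19938 genes. The κB consensus, the AP-1 motif, the TATA box and the GC box were searched on both strands. Alternatives were the 6 compared arrays alone, all deposited probe sets, median centring, quantile normalization, only brighter probe sets, the replicate number as a block, limma-trend, robust eBayes, each array left out, other rules for a call and another choice of probe set per gene. Figures were drawn with matplotlib 3.10.9.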

Additional observations from a re-analysis of the deposited data

Results flagged for a closer look

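Data that no comparison above uses held a difference too. Among the 12147 probe sets with no gene symbol here, adjusted over all 35557 deposited probe sets with limma, 154 (1.27%) were higher and 125 (1.03%) lower in the stimulated knock-down than in resting wild-type cells. Over all 35557 the same adjustment gave 753 higher and 853 lower, so the shares were smaller among probe sets without a symbol. Among those that passed the test without overlap between the groups, the largest increase was in probe set 10606473. Its log2 signal was 4.495, 3.93 and 4.29 in the resting arrays and 6.20, 5.998 and 6.49 in the knock-down arrays. Its log2 difference was 1.992 (standard error 0.163, limma adjusted p = 0.00132). Passing the test and the lack of overlap were conditions of its choice and are no further evidence. What these probe sets measure was not tested.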

How the results depend on the processing

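The difference of *Med17* and the counts of 27 higher and 5 lower genes in the NF-κB, IκB, A20, chemokine and cytokine lists kept their direction and stayed within 1.5 times their value in every alternative run. Counts over all probe sets moved more. Leaving out 1 array at a time gave 523 to 841 higher and 624 to 1123 lower probe sets, 9 to 23 changed by TNF-α in wild type and 738 to 1596 changed between the stimulated lines. A rule adapted from the study's reproducibility filter, with unadjusted limma p-values, gave 2028 higher and 2634 lower. Its scatter term used only the knock-down arrays against the resting mean, so scatter of the resting arrays entered through the p-value alone. A 2-fold minimum gave 201 and 160. The TNF-α count in wild type was 13 of all deposited probe sets and 41 among brighter ones. With the replicate block there were 1213 higher, 1609 lower, 55 changed by TNF-α in wild type and 2108 changed between the stimulated lines. Against rest the block changed the call of 2 named genes, *Ch25h* (adjusted p = 0.0209) and *Ptx3* (adjusted p = 0.00387), which then passed. It changed more calls in the side comparisons, those of 14 named genes for TNF-α in wild type and of 11 between the stimulated lines. Most of these then passed, while *Cxcl5*, *Rel* and *Slc7a2* then missed the threshold for TNF-α in wild type. The TNF-α and line counts were not run on the 6 arrays alone, which lack 1 of their groups. Of the 114 named genes past the test, 92 stayed past it with the same sign in every alternative run, and 8 of the 13 named genes not past it kept their side and sign. The 3 named genes whose sign turned did not pass the test: leaving out 1 array at a time, *Ccl5* ranged from -0.267 to 0.028, *Il6* from -0.004 to 0.178 and *Ccl25* from -0.061 to 0.187. The causes were not tested.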

Other observations

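Further groups of genes were read from the same fit, beside shares over all genes of 3.84% higher and 4.74% lower. Among 16 contractile genes 2 were higher and none lower, *Actg2*, a smooth muscle actin, at 8.41, 7.63 and 8.66 against 6.83, 6.10 and 6.75 at rest (difference 1.68, adjusted p = 0.00957) and the tropomyosin gene *Tpm2* at 0.67 (adjusted p = 0.0166), which missed the threshold without resting array 1 or 2 or knock-down array 3 (adjusted p = 0.0581, 0.0523 and 0.0595). Among 14 genes of cholesterol synthesis and oxysterols, *Insig1*, which retains the SREBP complex in the endoplasmic reticulum, was higher by 0.97 (adjusted p = 0.0477). *Cyp7b1*, an oxysterol hydroxylase, was lower by a difference of -0.74 (adjusted p = 0.00149). Each is 1 gene, or 7.143% of the list. *Insig1* missed the threshold without resting array 1 or 2, stimulated wild-type array 1 or 2 or knock-down array 1, 2 or 3 (adjusted p = 0.0565 to 0.155). *Cyp7b1* read 7.19, 7.06 and 6.997 at rest, 7.23, 7.01 and 7.10 in stimulated wild-type and 6.47, 6.29 and 6.27 in knock-down arrays. Of 16 metal and oxidative stress genes, *Hmox1* (heme oxygenase), 6.25% of the list, was lower by a difference of -0.93 (adjusted p = 0.0365) and none was higher. *Hmox1* missed the threshold without resting array 1, 2 or 3, stimulated wild-type array 1 or knock-down array 1 or 2 (adjusted p = 0.061 to 0.132). With 1 gene each way in such short lists, the cholesterol and metal counts are not a result about these groups.

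Of 17 transporters and receptors tied to this study, 7 were lower and 2 higher. Like the other lists, this list was drawn up with results of these arrays known, so it is no independent evidence of a direction. Beside those already described it held *S1pr1*, a second receptor for sphingosine 1-phosphate, at -0.88 (adjusted p = 0.0145) and *Cyp26b1*, which degrades retinoic acid, at -0.60 (adjusted p = 0.0166). *S1pr1* missed the threshold without knock-down array 2 (adjusted p = 0.0587), and *Cyp26b1* missed the threshold without resting array 1 or 2 or knock-down array 1 (adjusted p = 0.0593, 0.0508 and 0.0619). Of the 18 measured genes that the study's text names, 7 were higher and 1, *Med17*, was lower.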
